A study of Mus musculus with 32 samples.

Results

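This account follows 38 mouse genes of glucose breakdown and of the response to low oxygen, chosen as a list by name and grouped here by role. A gene was measured where an array carried a probe annotated to its symbol alone. This held for 36 of the 38 genes: 34 of the 18193 genes on the RNA interference (RNAi) arrays, 31 of the 12034 genes on the 2-colour arrays, and 29 on both. Gapdh and Bnip3l were measured on the 2-colour arrays only, and Aldoa, Pkm, Pdk1, Ankrd37 and Car9 on the RNAi arrays only. Gpi1 and Eno1 were not analysed here.

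The study examined how Oct4 and Nanog hold mouse embryonic stem (ES) cells in their undifferentiated state, using the E14TG2a line throughout. For RNAi, cells were transfected with constructs based on pSUPER-puro and kept in 1 ug/ml puromycin for 3 days, starting 24 hours after transfection. There were 5 arrays of the empty parental vector, 5 of Nanog RNAi and 4 of Pou5f1 RNAi, where Pou5f1 is the gene for Oct4. For differentiation, cells received 0.1 µM retinoic acid (RA), 1% dimethyl sulfoxide (DMSO) or 3 mM hexamethylene bisacetamide (HMBA), and RNA was taken on days 2, 4 and 6. Each treatment and day has 2 arrays, 1 with the treated sample in Cy3 and 1 with it in Cy5, both against RNA of untreated E14 cells. All cells share this parental line, the vector cells went through the same transfection and selection, and the untreated RNA serves as reference for all 3 treatments. Labels do not say that replicate arrays came from separate cultures, so the p-values measure the spread between arrays.

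Glycolysis splits glucose into pyruvate in the cytosol. Glucose enters through the Slc2a transporters, is trapped by hexokinases, committed by phosphofructokinase and cleaved by aldolase, and pyruvate is then turned into lactate by lactate dehydrogenase or passed to mitochondria, a step that pyruvate dehydrogenase kinases hold back. In low oxygen the prolyl hydroxylases of the Egln family stop marking the hypoxia-inducible factors (HIF) for destruction, and HIF then binds the core sequences ACGTG and GCGTG near its target genes, many glycolytic genes among them. Pluripotent cells are known for a high rate of glycolysis even in oxygen.

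The targeted genes fell as labelled: Pou5f1 was lower after Pou5f1 RNAi (-2.38 ± 0.10, adjusted p = 1.12e-13) and Nanog was lower after Nanog RNAi (-1.81 ± 0.08, adjusted p = 2.1e-12). Nanog was also lower after Pou5f1 RNAi (-1.40 ± 0.09), while Pou5f1 after Nanog RNAi did not pass the test (-0.10 ± 0.10, adjusted p = 0.61). Values here are log2 differences of group means with the standard error of the fit, and a gene is called where the Benjamini-Hochberg adjusted p of the limma fit over all probe sets is under 0.05. Markers of other cell types moved with the RNAi groups. The sum of the linear levels of 9 trophectoderm markers ranged from 739 to 877 on vector arrays, from 2200 to 2890 after Nanog RNAi and from 20400 to 21400 after Pou5f1 RNAi, with 8 and 9 of the 9 called higher. This sum leans on the keratins Krt8 and Krt18, the brightest of the 9 after both knockdowns. Their mean log2 levels were 9.89 and 9.47 after Nanog RNAi and 13.19 and 13.04 after Pou5f1 RNAi. The median log2 change of the 9 was 0.60 after Nanog RNAi, where Elf5 was not called, and 2.34 after Pou5f1 RNAi. The sum of 12 ES cell markers fell from a range of 29100 to 32300 to ranges of 23800 to 25900 and 9690 to 11600, with 7 and 11 of 12 called lower. For 7 primitive endoderm markers the ranges were 599 to 646, 636 to 846 and 296 to 316 in the same order, with 3 called higher after Nanog RNAi and 5 lower after Pou5f1 RNAi. For 8 fibroblast markers they were 167 to 189, 157 to 176 and 169 to 175. The part of this change in cell type in the results below was not tested, and in such bulk RNA fewer cells of a type and less RNA per cell cannot be told apart.

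Nanog RNAi lowered most of the measured genes. Of 34, 22 were called lower and 2 higher, where 8.77% of all genes were called lower and 12.1% higher (20.8% in either direction). The median change of the 34 was -0.42, against -0.015 over all genes. The falls comprised 14 of 19 genes of transport, glycolysis and pyruvate fate, and 8 of 15 hypoxia targets outside glycolysis.

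Pou5f1 RNAi also lowered most of them but raised several. Of the 34, 21 were called lower and 7 higher, where 19.5% of all genes were called lower and 20.6% higher (40.1% in either direction), so a call of either kind was common on these arrays. The median change was -0.34, against -0.037 over all genes. Both comparisons use the same 5 vector arrays. Directly compared, Pou5f1 RNAi arrays had 16 of the 34 genes higher and 6 lower than Nanog RNAi arrays (18.8% and 18.6% of all genes, 37.4% in all), with a median difference of 0.15 against -0.011. With the replicate number as a block the higher and lower counts were 8 and 20 for Pou5f1 RNAi (22.3% and 22.0% of all genes, 44.3% in all), 2 and 22 for Nanog RNAi (13.7% and 10.3%, 24.0% in all) and 17 and 6 between them (20.6% and 19.3%, 39.8% in all).

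**Figure D1:**
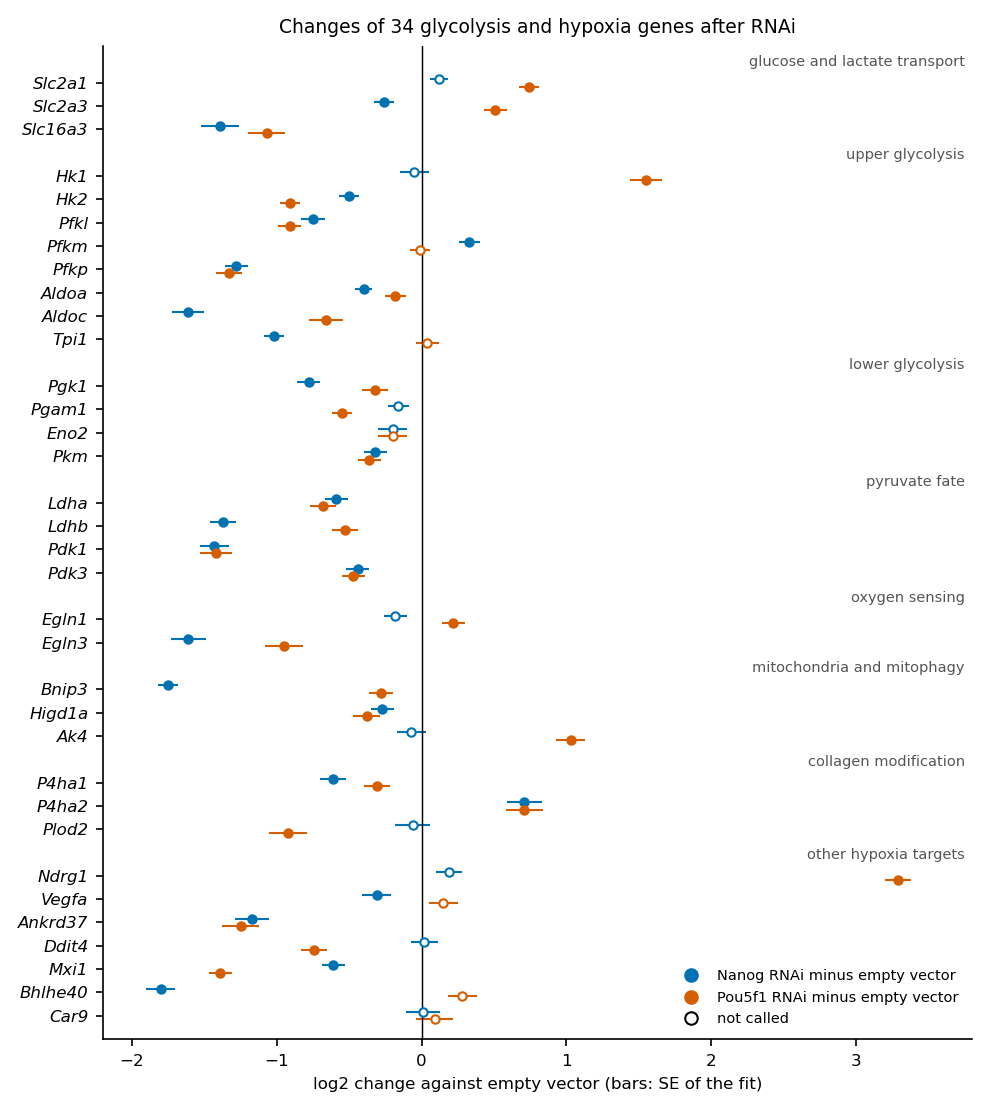
Log2 change against the empty vector (x axis) of 34 genes (y axis, grouped by role) after Nanog RNAi (blue, 5 arrays) and Pou5f1 RNAi (orange, 4 arrays), each against 5 vector arrays. Points are fitted changes with their SE, filled where called. Bhlhe40, Bnip3 and Egln3 lie farthest left after Nanog RNAi, and Ndrg1 lies farthest right after Pou5f1 RNAi at 3.29.

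The 2 glucose transporters and the lactate exporter went different ways. Slc2a1, the widely expressed glucose transporter GLUT1, had log2 levels of 11.80, 11.85, 11.93, 11.90 and 11.88 on the vector arrays, 12, 12.02, 12.02, 11.95 and 11.99 after Nanog RNAi and 12.65, 12.58, 12.72 and 12.49 after Pou5f1 RNAi. Every Pou5f1 RNAi array was above every other array, and the rise was 1.67-fold (0.74 ± 0.07, adjusted p = 2.29e-08), while the value after Nanog RNAi was 0.12 ± 0.06, adjusted p = 0.251.

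Slc2a3, the high-affinity transporter GLUT3, read 12.39, 12.34, 12.47, 12.65 and 12.49 on the vector arrays, 12.17, 12.15, 12.15, 12.33 and 12.22 after Nanog RNAi and 13, 13, 13.02 and 12.91 after Pou5f1 RNAi. The 3 groups did not overlap: Slc2a3 rose after Pou5f1 RNAi (0.51 ± 0.08, adjusted p = 1.42e-05) and fell slightly after Nanog RNAi (-0.26 ± 0.07, adjusted p = 0.0138). Slc16a3, the monocarboxylate transporter MCT4 that exports lactate, read 7.72, 7.98, 7.95, 7.50 and 7.85 on the vector arrays, 6.25, 6.20, 6.15, 6.56 and 6.90 after Nanog RNAi and 6.92, 6.63, 6.65 and 6.71 after Pou5f1 RNAi. It fell 2.62-fold after Nanog RNAi (-1.39 ± 0.13, adjusted p = 9.2e-08) and 2.1-fold after Pou5f1 RNAi (-1.07 ± 0.13, adjusted p = 1.42e-06), and the 2 RNAi groups overlapped each other.

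Among the enzymes of upper glycolysis, 6 of 8 were lower after Nanog RNAi and 5 of 8 after Pou5f1 RNAi, with 1 higher in each. The hexokinases, which phosphorylate glucose, moved in opposite directions after Pou5f1 RNAi. After Nanog RNAi Hk2 was lower and Hk1 was not called (-0.05 ± 0.10, adjusted p = 0.834). Hk1 read 6.90, 7.17, 7.05, 7.07 and 7.28 on the vector arrays, 7.02, 6.92, 6.85, 7.09 and 7.34 after Nanog RNAi and 8.46, 8.59, 8.89 and 8.64 after Pou5f1 RNAi. Only the Pou5f1 RNAi arrays stood apart, 2.94-fold above vector (1.55 ± 0.11, adjusted p = 2e-10), and Hk1 differed between the 2 knockdowns (1.60 ± 0.11, adjusted p = 1.47e-10). Hk2, the isoform known as a HIF target, read 10.20, 10.27, 10.42, 10.31 and 10.32 on the vector arrays, 9.78, 9.73, 9.77, 9.81 and 9.92 after Nanog RNAi and 9.31, 9.32, 9.48 and 9.48 after Pou5f1 RNAi. These 3 groups formed separate steps, with falls of -0.50 ± 0.07 and -0.91 ± 0.07 (adjusted p = 2.94e-05 and 3.4e-09).

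The 3 phosphofructokinase genes encode the muscle, liver and platelet subunits of the committing enzyme. Pfkp read 9.85, 10.01, 9.94, 10.18 and 10.21 on the vector arrays, 8.74, 8.72, 8.68, 8.77 and 8.90 after Nanog RNAi and 8.77, 8.56, 8.79 and 8.73 after Pou5f1 RNAi. It was 2.42-fold lower after Nanog RNAi (-1.28 ± 0.08, adjusted p = 4.54e-10) and 2.51-fold lower after Pou5f1 RNAi (-1.33 ± 0.09, adjusted p = 9.12e-11), with the 2 knockdowns overlapping. Pfkl read 9.92, 9.98, 10.01, 10.09 and 10.08 on the vector arrays, 9.15, 9.19, 9.14, 9.36 and 9.50 after Nanog RNAi and 9.05, 9.08, 9.15 and 9.14 after Pou5f1 RNAi, all below vector (-0.75 ± 0.08 and -0.91 ± 0.08, adjusted p = 5.06e-07 and 1.21e-08). Pfkm did the reverse after Nanog RNAi. It read 7.43, 7.45, 7.43, 7.48 and 7.58 on the vector arrays, 7.81, 7.71, 7.79, 7.89 and 7.86 after Nanog RNAi and 7.36, 7.44, 7.51 and 7.56 after Pou5f1 RNAi, so that only the Nanog RNAi arrays were raised (0.33 ± 0.07, adjusted p = 0.0013).

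Aldolase cleaves the 6-carbon sugar. Aldoc, its brain isoform, read 7.55, 7.48, 7.56, 7.86 and 7.96 on the vector arrays, 6.01, 5.72, 6.09, 6.13 and 6.42 after Nanog RNAi and 7.06, 6.98, 7.06 and 6.99 after Pou5f1 RNAi. The groups did not overlap, with a 3.05-fold fall after Nanog RNAi (-1.61 ± 0.11, adjusted p = 1.66e-09) and a 1.58-fold fall after Pou5f1 RNAi (-0.66 ± 0.12, adjusted p = 0.000128). The 1 other Aldoc probe set was called after neither knockdown. The far more abundant signal of Aldoa, between 11.93 and 12.47 on all arrays, fell by less (-0.40 ± 0.06 after Nanog RNAi, adjusted p = 0.000133). Its change of -0.18 ± 0.07 after Pou5f1 RNAi (adjusted p = 0.0483) missed the threshold when any of 12 of the 14 arrays was left out, with adjusted p from 0.0546 to 0.152, and with the replicate number as a block (adjusted p = 0.0708).

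Tpi1, triosephosphate isomerase, separated the 2 knockdowns. It read 11.26, 11.18, 11.42, 11.42 and 11.36 on the vector arrays, 10.21, 10.29, 10.24, 10.36 and 10.45 after Nanog RNAi and 11.32, 11.34, 11.47 and 11.33 after Pou5f1 RNAi. Nanog RNAi lowered it 2.03-fold (-1.02 ± 0.07, adjusted p = 2.56e-09), its difference after Pou5f1 RNAi was 0.04 ± 0.08 (adjusted p = 0.787), and the 2 knockdowns differed by 1.06 ± 0.08 (adjusted p = 6.69e-10).

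In lower glycolysis changes were smaller, with 2 of 4 genes lower after Nanog RNAi, 3 of 4 after Pou5f1 RNAi, and the others not called. Pgk1, phosphoglycerate kinase, fell after Nanog RNAi (-0.78 ± 0.08, adjusted p = 7.03e-07) and less after Pou5f1 RNAi (-0.32 ± 0.09, adjusted p = 0.00579). The 2 other Pgk1 probe sets were called lower after Nanog RNAi but were not called after Pou5f1 RNAi. Pgam1, phosphoglycerate mutase, read 11.84, 11.78, 11.85, 12.02 and 11.95 on the vector arrays, 11.69, 11.65, 11.70, 11.78 and 11.83 after Nanog RNAi and 11.30, 11.33, 11.43 and 11.30 after Pou5f1 RNAi. It was lower after Pou5f1 RNAi (-0.55 ± 0.07, adjusted p = 3.72e-06) and lower there than after Nanog RNAi (-0.39 ± 0.07, adjusted p = 0.000248), while vector and Nanog RNAi arrays overlapped. Pkm, pyruvate kinase, was modestly lower in both (-0.32 ± 0.08 and -0.36 ± 0.08, adjusted p = 0.00689 and 0.00212). Eno2, the neuronal enolase, lay at 3.42 to 4.23 on all arrays, below the array medians of 4.57 to 4.66, and was not called.

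All 4 listed genes of pyruvate fate were lower in both knockdowns. Outside the list, 12 genes of pyruvate handling were measured. Of these, 2 were called higher and 3 lower after Nanog RNAi (12.1% and 8.77% of all genes). After Pou5f1 RNAi 4 were higher and 5 lower (20.6% and 19.5% of all genes). Ldhb, the lactate dehydrogenase subunit that favours pyruvate, read 10.41, 10.73, 10.58, 10.63 and 10.65 on the vector arrays, 9.23, 9.24, 9.08, 9.06 and 9.55 after Nanog RNAi and 10.01, 10.06, 10.05 and 10.15 after Pou5f1 RNAi. The groups were separate, and the fall was 2.59-fold after Nanog RNAi (-1.37 ± 0.09, adjusted p = 6.44e-10) and 1.45-fold after Pou5f1 RNAi (-0.53 ± 0.09, adjusted p = 0.000118). Ldha, the subunit that favours lactate, fell to like degrees (-0.59 ± 0.08 and -0.68 ± 0.09, adjusted p = 2.45e-05 and 1.89e-06), with overlapping knockdown arrays.

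Pdk1, the HIF-induced kinase that switches off pyruvate dehydrogenase, read 9.39, 9.19, 9.54, 9.83 and 9.60 on the vector arrays, 8.14, 7.96, 8.08, 8.06 and 8.17 after Nanog RNAi and 8.17, 8.29, 8.08 and 7.84 after Pou5f1 RNAi. All knockdown arrays lay below the lowest vector array, with falls of -1.43 ± 0.10 and -1.42 ± 0.11 (adjusted p = 3.57e-09 and 1.6e-09). The 2 knockdowns differed from each other by 0.01 ± 0.11. Pdk3, a kinase of the same family, fell by less (-0.44 ± 0.08 and -0.47 ± 0.08, adjusted p = 0.000436 and 0.00013).

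Of the oxygen sensors, Egln3 fell in both knockdowns. Egln3, itself a strong HIF target, read 7.49, 7.47, 7.54, 7.42 and 7.65 on the vector arrays, 6.42, 5.59, 5.91, 5.61 and 5.99 after Nanog RNAi and 6.43, 6.55, 6.78 and 6.52 after Pou5f1 RNAi. It was 3.06-fold lower after Nanog RNAi (-1.61 ± 0.12, adjusted p = 5.95e-09) and 1.93-fold lower after Pou5f1 RNAi (-0.95 ± 0.13, adjusted p = 4.99e-06), and Nanog RNAi replicate 1, at 6.42, lay just below the lowest Pou5f1 RNAi array, at 6.43. Egln1, the main prolyl hydroxylase, read 6.92, 7.02, 7.0, 7.03 and 6.97 on the vector arrays, 6.68, 6.93, 6.80, 6.64 and 6.98 after Nanog RNAi and 7.25, 7.12, 7.29 and 7.17 after Pou5f1 RNAi. It was slightly higher after Pou5f1 RNAi (0.22 ± 0.08, adjusted p = 0.039), a call lost without any 1 of 6 arrays (vector replicates 1, 3 and 5, Pou5f1 RNAi replicates 1, 3 and 4; adjusted p 0.058 to 0.12).

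Bnip3, a mitophagy receptor induced by HIF, read 10.24, 10.32, 10.31, 10.44 and 10.45 on the vector arrays, 8.65, 8.61, 8.46, 8.56 and 8.76 after Nanog RNAi and 9.99, 10.03, 10.15 and 10.12 after Pou5f1 RNAi. It fell 3.35-fold after Nanog RNAi (-1.75 ± 0.07, adjusted p = 1.09e-12), against 1.21-fold after Pou5f1 RNAi (-0.28 ± 0.08, adjusted p = 0.00831). The difference between the knockdowns, 1.47 ± 0.08, was called (adjusted p = 5.72e-12). Ak4, a mitochondrial adenylate kinase, read 9.14, 9.20, 9.24, 9.46 and 9.62 on the vector arrays, 9.14, 9.12, 9.14, 9.38 and 9.52 after Nanog RNAi and 10.34, 10.32, 10.41 and 10.38 after Pou5f1 RNAi. Vector and Nanog RNAi overlapped, while Pou5f1 RNAi was 2.05-fold above vector (1.03 ± 0.10, adjusted p = 6.59e-08). Of the 4 other Ak4 probe sets, 2 were also called higher after Pou5f1 RNAi.

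Higd1a, a small protein of the respiratory chain, was slightly lower in both (-0.27 ± 0.08 and -0.38 ± 0.09, adjusted p = 0.0269 and 0.00133). Of its 2 other probe sets, 1 was called higher after Nanog RNAi, so its direction there depends on the probe set. With the mean over its probe sets, neither change was called (adjusted p = 0.66 for Nanog RNAi and 0.109 for Pou5f1 RNAi). The Nanog RNAi call was also lost when arrays were centred on their medians (adjusted p = 0.0655) and without vector replicate 4 or 5 or Nanog RNAi replicate 2 or 3 (adjusted p 0.0607 to 0.082).

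The 3 enzymes that modify collagen split. P4ha2, a prolyl hydroxylase of collagen, was the 1 gene that rose in both knockdowns. It read 6.46, 6.68, 6.95, 6.98 and 7.16 on the vector arrays, 7.47, 7.58, 7.36, 7.53 and 7.82 after Nanog RNAi and 7.46, 7.37, 7.80 and 7.59 after Pou5f1 RNAi, with rises of 0.71 ± 0.12 and 0.71 ± 0.13 (adjusted p = 0.00022 and 0.000122). Its paralog P4ha1 was lower after Nanog RNAi (-0.61 ± 0.09, adjusted p = 3.94e-05) and, less, after Pou5f1 RNAi (-0.31 ± 0.09, adjusted p = 0.0136), the latter lost without Pou5f1 RNAi replicate 1 or 2 (adjusted p = 0.0509 and 0.0536). Plod2, a lysyl hydroxylase, read 9.37, 9.52, 9.50, 8.84 and 9.04 on the vector arrays, 9.31, 9.38, 9.29, 8.92 and 9.08 after Nanog RNAi and 8.40, 8.42, 8.16 and 8.38 after Pou5f1 RNAi. It fell after Pou5f1 RNAi (-0.92 ± 0.13, adjusted p = 7.19e-06) and differed between the knockdowns (-0.86 ± 0.13, adjusted p = 1.84e-05). Replicates 4 and 5 lay lowest in both the vector and the Nanog RNAi group.

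Of the 7 other hypoxia targets, Ndrg1 changed most. Ndrg1, a differentiation and stress gene, read 6.76, 6.49, 6.74, 6.73 and 6.84 on the vector arrays, 6.73, 6.79, 6.87, 7.01 and 7.13 after Nanog RNAi and 9.87, 9.99, 10.13 and 10.03 after Pou5f1 RNAi. It rose 9.8-fold after Pou5f1 RNAi (3.29 ± 0.09, adjusted p = 2.31e-16), whereas Nanog RNAi arrays overlapped the vector arrays (0.19 ± 0.09, adjusted p = 0.17). All 4 other Ndrg1 probe sets were also called higher after Pou5f1 RNAi. Bhlhe40 is a repressor of transcription and part of the circadian clock. It read 7.64, 7.58, 7.72, 7.78 and 8.05 on the vector arrays, 5.71, 5.95, 5.81, 6.13 and 6.14 after Nanog RNAi and 7.95, 8.01, 8.18 and 7.98 after Pou5f1 RNAi. It fell 3.49-fold after Nanog RNAi (-1.80 ± 0.10, adjusted p = 4.83e-11), the largest fall of the 34, and its value of 0.28 ± 0.10 after Pou5f1 RNAi had an adjusted p of 0.0503, from 0.00844 to 0.0473 without any 1 of 4 arrays (vector replicate 5, Nanog RNAi replicates 1, 4 and 5) and 0.00466 with the replicate number as a block. The 2 knockdowns differed by 2.08 ± 0.10 (adjusted p = 2.03e-12).

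Mxi1, an antagonist of Myc, read 8.55, 8.84, 8.73, 8.54 and 8.68 on the vector arrays, 8.13, 8.07, 8.02, 7.87 and 8.20 after Nanog RNAi and 7.28, 7.23, 7.28 and 7.33 after Pou5f1 RNAi. The 3 groups were separate, with a 2.62-fold fall after Pou5f1 RNAi (-1.39 ± 0.08, adjusted p = 2.29e-11) and a 1.53-fold fall after Nanog RNAi (-0.61 ± 0.08, adjusted p = 8.89e-06). Ankrd37, an ankyrin repeat protein known as a direct HIF target, read 6.65, 6.77, 7.03, 6.95 and 7.41 on the vector arrays, 5.60, 5.88, 5.84, 5.71 and 5.93 after Nanog RNAi and 5.51, 5.55, 6.02 and 5.78 after Pou5f1 RNAi. Both knockdowns were below every vector array (-1.17 ± 0.12 and -1.25 ± 0.13, adjusted p = 7.26e-07 and 1.3e-07) and overlapped each other. Ddit4, an inhibitor of mTORC1, read 9.73, 9.73, 9.82, 9.97 and 9.95 on the vector arrays, 9.75, 9.74, 9.76, 9.88 and 10.17 after Nanog RNAi and 9.05, 9.24, 9.10 and 9.0 after Pou5f1 RNAi. It was lower after Pou5f1 RNAi (-0.74 ± 0.09, adjusted p = 1.66e-06), with vector and Nanog RNAi overlapping.

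Vegfa, the angiogenic growth factor, was slightly lower after Nanog RNAi (-0.31 ± 0.10, adjusted p = 0.0346), a call lost without any 1 of 7 of the 10 arrays compared (adjusted p 0.0545 to 0.0916). Its value after Pou5f1 RNAi was 0.15 ± 0.10 (adjusted p = 0.311), and the mean over both its probe sets was called higher there (adjusted p = 0.000108). Car9, a carbonic anhydrase and a sensitive HIF target in other cells, lay at 3.70 to 4.41 on all arrays, a level that 38.0% of the probe sets did not reach, and was not called in the 3 comparisons.

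**Figure D2:**
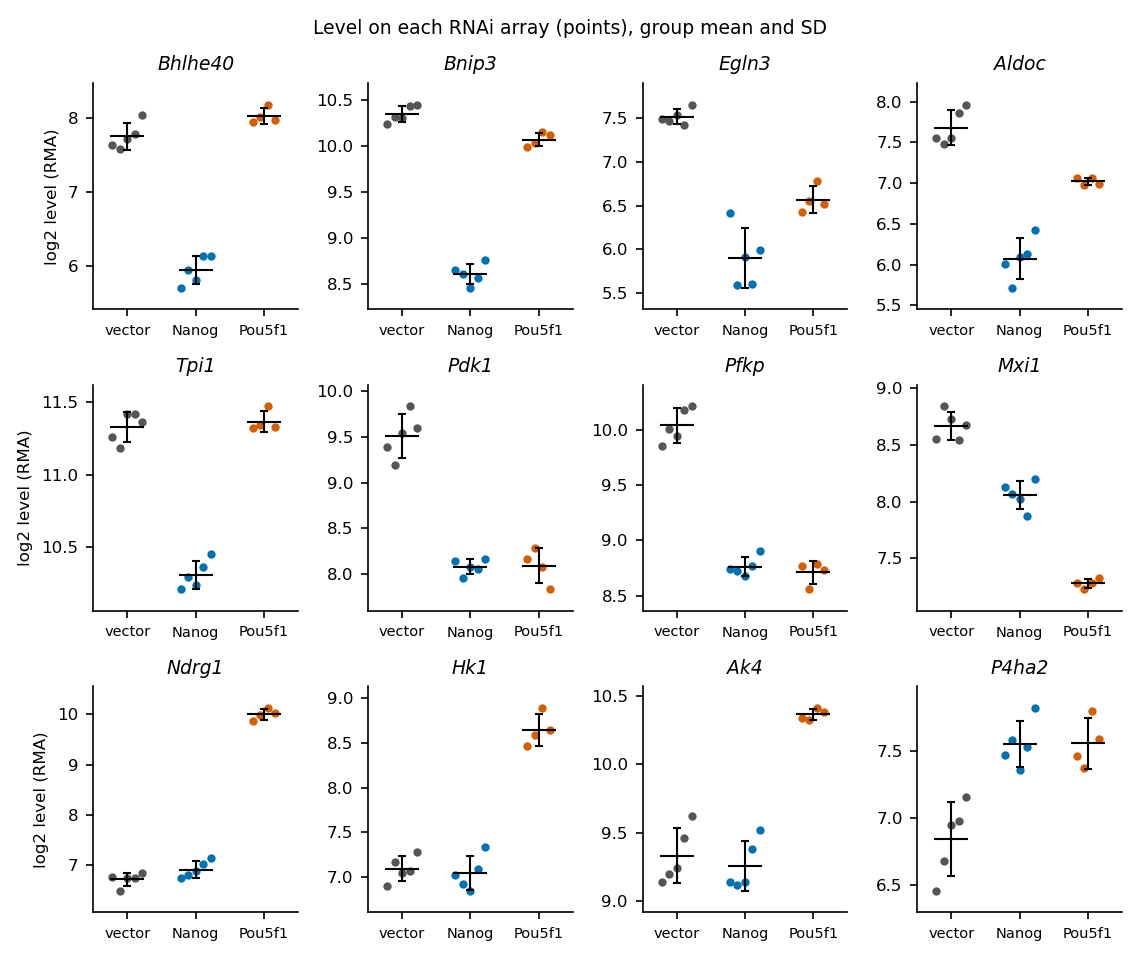
Log2 level (y axis, RMA) of 12 genes on each array (points) of the vector (grey, 5), Nanog RNAi (blue, 5) and Pou5f1 RNAi (orange, 4) groups (x axis), with group mean (bar) and SD (error bar). Bhlhe40, Bnip3 and Tpi1 are lowest after Nanog RNAi, Pdk1 and Pfkp are low in both knockdowns, and Ndrg1, Hk1 and Ak4 are highest after Pou5f1 RNAi.

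The promoters of the genes that fell most after Nanog RNAi held between 0 and 5 matches to the HIF core sequences. The windows below are the 250 bases before the RefSeq start on GRCm38.p6 of the 9 genes that fell by over 1.00 on the log2 scale and have an entry, read 5′ to 3′ on the gene's strand. Capitals mark ACGTG and GCGTG, the core of the hypoxia response element, on either strand, so the reverse complements CACGT and CACGC are in capitals too, and the letters CACGTG hold 2 overlapping matches. Where a gene has several windows (Aldoc, Pdk1), the one with more matches is shown.
Bnip3: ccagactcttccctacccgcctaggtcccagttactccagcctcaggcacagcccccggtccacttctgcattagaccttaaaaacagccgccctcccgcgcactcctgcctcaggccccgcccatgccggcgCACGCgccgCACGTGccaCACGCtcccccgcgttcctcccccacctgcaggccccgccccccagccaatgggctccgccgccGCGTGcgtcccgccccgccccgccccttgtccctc
Egln3: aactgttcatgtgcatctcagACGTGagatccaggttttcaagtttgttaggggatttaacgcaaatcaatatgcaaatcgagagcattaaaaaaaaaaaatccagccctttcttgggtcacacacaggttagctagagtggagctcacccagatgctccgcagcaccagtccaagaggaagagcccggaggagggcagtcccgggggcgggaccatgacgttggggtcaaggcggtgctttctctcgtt
Aldoc: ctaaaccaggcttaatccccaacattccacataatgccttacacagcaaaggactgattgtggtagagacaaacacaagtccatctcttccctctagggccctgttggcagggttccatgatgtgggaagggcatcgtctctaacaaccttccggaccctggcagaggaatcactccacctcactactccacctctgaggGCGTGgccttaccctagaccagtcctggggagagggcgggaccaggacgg
Pdk1: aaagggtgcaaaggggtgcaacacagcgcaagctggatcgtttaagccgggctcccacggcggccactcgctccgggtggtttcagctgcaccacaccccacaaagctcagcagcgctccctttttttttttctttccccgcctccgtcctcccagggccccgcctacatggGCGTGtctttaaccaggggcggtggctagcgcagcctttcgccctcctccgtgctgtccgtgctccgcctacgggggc
Slc16a3: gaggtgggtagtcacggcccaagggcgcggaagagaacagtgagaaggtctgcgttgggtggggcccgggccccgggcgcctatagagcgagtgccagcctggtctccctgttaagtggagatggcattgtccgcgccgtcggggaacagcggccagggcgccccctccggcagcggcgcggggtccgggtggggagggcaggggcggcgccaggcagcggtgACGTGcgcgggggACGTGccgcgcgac
Ldhb: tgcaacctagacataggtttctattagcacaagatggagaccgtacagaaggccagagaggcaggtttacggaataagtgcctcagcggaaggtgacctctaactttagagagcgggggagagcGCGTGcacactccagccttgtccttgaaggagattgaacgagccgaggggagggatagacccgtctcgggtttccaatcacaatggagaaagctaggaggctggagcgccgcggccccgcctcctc
Pfkp: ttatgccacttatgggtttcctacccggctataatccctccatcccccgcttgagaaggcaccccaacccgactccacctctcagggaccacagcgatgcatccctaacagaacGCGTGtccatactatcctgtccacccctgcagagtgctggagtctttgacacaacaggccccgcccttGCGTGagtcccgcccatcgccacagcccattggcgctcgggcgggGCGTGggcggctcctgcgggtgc
Ankrd37: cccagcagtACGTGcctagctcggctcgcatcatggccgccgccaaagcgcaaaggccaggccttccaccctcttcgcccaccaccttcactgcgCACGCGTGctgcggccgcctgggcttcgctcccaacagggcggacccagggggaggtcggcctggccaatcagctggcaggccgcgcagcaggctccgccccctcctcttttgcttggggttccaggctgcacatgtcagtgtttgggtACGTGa
Tpi1: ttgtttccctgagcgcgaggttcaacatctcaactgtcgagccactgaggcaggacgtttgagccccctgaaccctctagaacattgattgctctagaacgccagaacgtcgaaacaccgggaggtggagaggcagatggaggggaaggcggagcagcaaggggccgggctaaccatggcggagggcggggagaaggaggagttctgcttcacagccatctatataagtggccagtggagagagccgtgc

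These windows lie at chr7:138909507-138909756, minus strand (Bnip3), chr12:54203875-54204124, minus strand (Egln3), chr11:78322823-78323072, plus strand (Aldoc), chr2:71872974-71873223, plus strand (Pdk1), chr11:120948817-120949066, plus strand (Slc16a3), chr6:142507958-142508207, minus strand (Ldhb), chr13:6648772-6649021, minus strand (Pfkp), chr8:45999851-46000100, minus strand (Ankrd37) and chr6:124814159-124814408, minus strand (Tpi1). Bnip3 holds 5 matches between 117 and 31 bases before the start, Ankrd37 holds 4, Pfkp holds 3 and Slc16a3 holds 2 within 27 bases of it. Egln3, Aldoc, Pdk1 and Ldhb hold 1 each. Tpi1 holds 0 in its window, and fell by 1.02 on the log2 scale, next to 1.17 for Ankrd37. Over the full RefSeq windows, which also cover 50 bases after the start, 28 of 51 windows of the listed genes (54.9%) contain ACGTG, against 22.9% of 18109 windows of genes on the RNAi arrays and 19.6% of all 32851 windows. For GCGTG the shares are 58.8%, 43.3% and 32.4%, and for CACGTG, which contains ACGTG, 7.84%, 8.72% and 7.15%. By gene, 30 of 33 listed genes with an entry had either core in at least 1 window, against 59.3% of 14452 genes on the RNAi arrays and 46.7% of all 27025. They included 19 of the 20 called lower after Nanog RNAi, 7 of the 8 not called and 2 of the 2 called higher among those on the RNAi arrays.  The list holds genes chosen for the response to low oxygen, so a larger share with HIF cores was likely from the start. Genes with several windows have more chances to match, and a match is a description of letters, not of binding. Slc2a3, Bhlhe40, Ndrg1, Plod2 and Bnip3l were not matched.

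Within groups the genes varied together, and so, less strongly, did genes in general. After subtracting group means, the median correlation over pairs of the 32 genes with a mean level over 6 was 0.41, with 79.8% of pairs above 0, against 0.276 and 71.3% over pairs of all 8084 such genes. These pairs share the same 14 arrays and are not independent. On vector replicates 1 to 5, the number of the 32 genes above their own group mean was 3, 7, 17, 24 and 28. For Nanog RNAi it was 8, 12, 5, 20 and 28, and for Pou5f1 RNAi replicates 1 to 4 it was 12, 7, 24 and 16. The same counts were not made over all genes. The median deviation of an array ranged from -0.108 to 0.142 on the log2 scale, small beside the larger changes above.

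In cells treated with RA, DMSO or HMBA genes of the list were called in both directions. Values are log ratios of treated over untreated cells as deposited, taken as log2 because the labels give no base. For RA, 7 of 31 genes were called higher and 8 lower as a mean over days 2, 4 and 6, where 17.0% and 10.5% of all genes were (27.5% in all). For DMSO 3 were higher and 7 lower (10.7% and 8.6%, 19.3% in all), and for HMBA 5 and 8 (15.5% and 12.8%, 28.2% in all). The medians of the 31 were -0.01, 0.07 and -0.02, against 0.012, 0.021 and 0.001 over all genes. These 3 comparisons share the untreated reference. The error of each mean comes from the spread within the 9 array pairs and leaves out the spread between days. The arrays of a pair differ in dye, so this error includes the dye effect unless dye orientation is fitted as a block. Leaving out 1 array leaves its treatment and day with 1 dye orientation, so the dye effect no longer cancels in that mean. Its part in the calls lost below when an array was left out was not tested. ES cell markers fell in all 3 treatments (11, 10 and 11 of 12 called lower), and of 7 trophectoderm markers 3, 1 and 3 were called higher and 0, 1 and 1 lower. Of 6 fibroblast markers 3, 1 and 2 were higher (median 0.81 with RA, -0.015 with DMSO and 0.00 with HMBA), and of 5 primitive endoderm markers 2, 0 and 1, with lower calls for 1 fibroblast marker with DMSO and 1 endoderm marker with RA. Their part in the results was not tested.

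For some genes the ratio differed with the dye. With dye orientation as a block, DMSO gave 9 genes higher and 8 lower in place of 3 and 7 (25.0% and 20.2% of all genes, 45.1% in all), RA 9 and 10 (29.9% and 22.8%, 52.6% in all), and HMBA 7 and 10 (27.4% and 25.5%, 52.9% in all). The DMSO count was also 6 without its day 4 and 6 without DMSO day 6 replicate 1, and the HMBA count was 8 without day 4. For 5 genes, namely Mxi1, Higd1a, Tpi1, Pgam1 and Hk1, the sign of the ratio followed the dye on every pair of arrays. Mxi1 read between 0.53 and 1.68 with the treated sample in Cy3 and between -2.04 and -0.36 with it in Cy5. Higd1a read between 0.25 and 1.45, and between -2.10 and -0.54. The median size of the difference between orientations was 0.43 over the 31 genes and 0.38 over all genes. No direction is read for these 5 genes on the 2-colour arrays, including the Higd1a falls that passed only with the block (DMSO -0.35, adjusted p = 0.0261, and HMBA -0.42, adjusted p = 0.00695). Aldoc changed sign with the dye in 6 of 7 pairs and Gapdh in 8 of 9, and neither was called without the block.

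**Figure D3:**
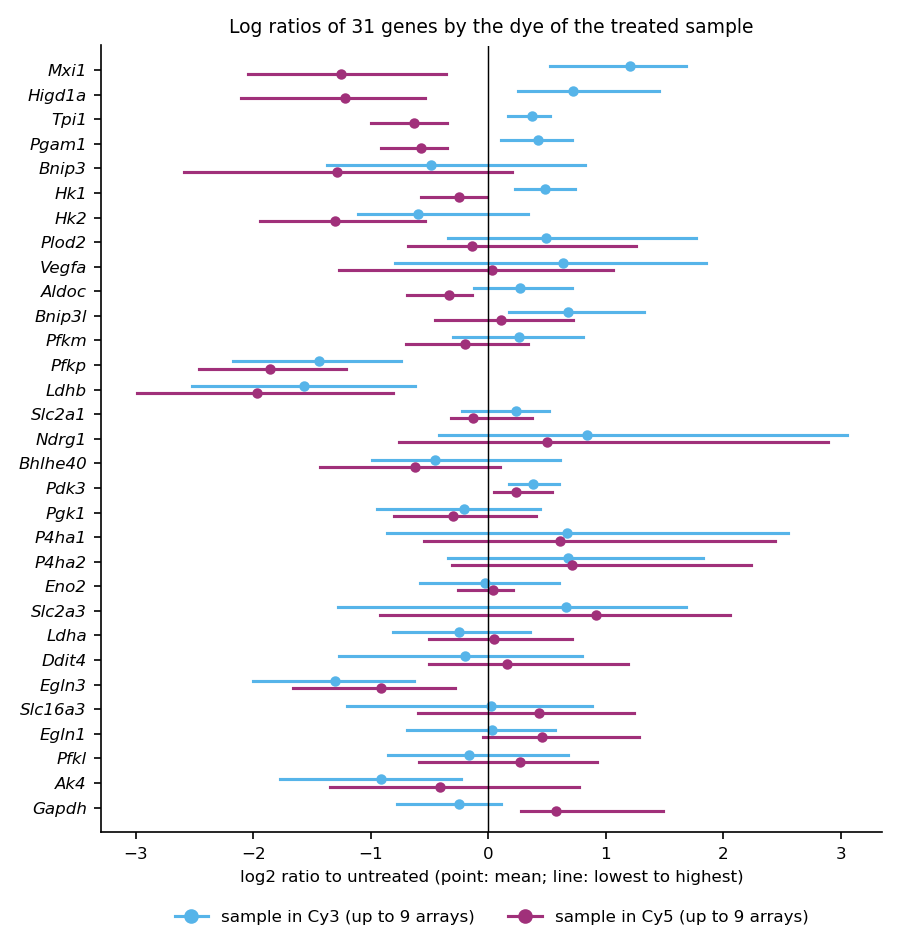
Log2 ratio of treated to untreated cells (x axis) for 31 genes (y axis) on arrays with the treated sample in Cy3 (light blue) or Cy5 (purple), up to 9 arrays each. Points are means and lines run from the lowest to the highest array. Mxi1, Higd1a, Tpi1, Pgam1 and Hk1 lie on opposite sides of 0 by dye, whereas Pfkp, Ldhb and Egln3 are below 0 and Pdk3 above 0 in both.

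Pfkp, Ldhb and Egln3 were below the untreated reference on all 18 arrays. Pfkp read -1.33 and -1.70 on day 2, -1.85 and -2.37 on day 4 and -0.82 and -1.21 on day 6 of RA, -1.62 and -1.93 on day 2, -1.97 and -2.37 on day 4 and -1.55 and -2.06 on day 6 of DMSO, and -0.87 and -1.42 on day 2, -2.17 and -2.46 on day 4 and -0.74 and -1.23 on day 6 of HMBA. The day 4 mean was lowest in each treatment, and the means over days were -1.55 ± 0.13, -1.92 ± 0.13 and -1.48 ± 0.13 (adjusted p = 2.26e-06, 6.61e-07 and 3.35e-06). Ldhb read -1.05 and -1.90 on day 2, -2.52 and -2.77 on day 4 and -2.32 and -2.99 on day 6 of RA, -0.69 and -1.16 on day 2, -1.50 and -1.34 on day 4 and -1.34 and -2.07 on day 6 of DMSO, and -0.62 and -0.81 on day 2, -1.74 and -2.15 on day 4 and -2.38 and -2.56 on day 6 of HMBA. The means were -2.26 ± 0.14, -1.35 ± 0.14 and -1.71 ± 0.14 (adjusted p = 2.29e-07, 2.75e-05 and 2.44e-06), so that RA gave a deeper fall than DMSO (difference -0.91 ± 0.20, adjusted p = 0.0151). That difference was lost without DMSO day 2 replicate 1 or DMSO day 6 replicate 1 (adjusted p = 0.0511 in both).

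Egln3 read -1.52 and -1.33 on day 2, -1.67 and -1.14 on day 4 and -0.63 and -0.28 on day 6 of RA, -0.95 and -0.86 on day 2, -1.42 and -0.34 on day 4 and -0.82 and -0.38 on day 6 of DMSO, and -1.45 and -1.23 on day 2, -2.0 and -1.66 on day 4 and -1.28 and -1.02 on day 6 of HMBA. The lowest arrays were those of HMBA day 4, and the means were -1.09 ± 0.14, -0.80 ± 0.14 and -1.44 ± 0.14 (adjusted p = 6.94e-05, 0.00124 and 7.55e-06). Egln1 was called higher with RA (0.52 ± 0.16, adjusted p = 0.0359), with adjusted p from 0.0655 to 0.318 without day 2, day 6 or 1 of 4 RA arrays. With HMBA its mean was 0.29 ± 0.16 (adjusted p = 0.246, and 0.035 with the dye block).

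Hexokinase 2 was lower in all 3 treatments. Hk2 read -0.52 and -1.22 on day 2, -0.58 and -1.77 on day 4 and -0.73 and -1.36 on day 6 of DMSO and -0.26 and -0.92 on day 2, -1.09 and -1.57 on day 4 and -1.03 and -1.94 on day 6 of HMBA, all below 0, with means of -1.03 ± 0.20 and -1.14 ± 0.20 (adjusted p = 0.00308 and 0.000998). With RA it was -0.68 ± 0.20, adjusted p = 0.0245, with 1 array above 0, and the call was lost without day 4 or day 6 or 1 of 4 RA arrays (adjusted p 0.0619 to 0.265), while the dye block gave 2.83e-06. The glucose transporter Slc2a3 rose instead. It read 1.14 and 1.19 on day 2, 0.54 and 1.0 on day 4 and 0.91 and 1.18 on day 6 of RA, and 0.66 and 0.54 on day 2, 1.68 and 2.06 on day 4 and 0.88 and 1.06 on day 6 of HMBA, all above 0, with means of 0.99 ± 0.12 and 1.15 ± 0.12 (adjusted p = 5.06e-05 and 1.51e-05).

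With DMSO, Slc2a3 read -1.28 and -0.92 on day 2, 0.06 and 0.94 on day 4 and 1.34 and 1.22 on day 6, below the reference first and above it last. Its DMSO mean of 0.22 ± 0.12 was not called (adjusted p = 0.248, and 0.0467 with the dye block), and the day 6 minus day 2 difference was 2.38 ± 0.29 (adjusted p = 0.00307). DMSO lay below RA (RA minus DMSO 0.77 ± 0.17, adjusted p = 0.0145) and below HMBA (DMSO minus HMBA -0.92 ± 0.17, adjusted p = 0.0153), the latter lost without any 1 of 5 arrays (adjusted p 0.0567 to 0.063). Slc16a3, the lactate exporter, was above 0 on all 6 DMSO arrays, at 0.29 and 0.90 on day 2, 0.32 and 1.24 on day 4 and 0.88 and 0.67 on day 6 (0.72 ± 0.14, adjusted p = 0.00395). With RA its mean was -0.37 ± 0.14 (adjusted p = 0.0805, and 0.00223 with the dye block), with HMBA it was 0.34 ± 0.14 (adjusted p = 0.115, and 0.0046 with the block), and RA differed from DMSO by -1.09 ± 0.20 (adjusted p = 0.00644). Slc2a1 stayed between -0.32 and 0.52 on all arrays and was not called.

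Pdk3 was above 0 on all 18 arrays, at 0.05 to 0.60, although it had fallen after both knockdowns. It read 0.20 and 0.29 on day 2, 0.29 and 0.16 on day 4 and 0.30 and 0.35 on day 6 of RA, 0.40 and 0.08 on day 2, 0.48 and 0.54 on day 4 and 0.52 and 0.24 on day 6 of DMSO, and 0.49 and 0.13 on day 2, 0.60 and 0.31 on day 4 and 0.18 and 0.05 on day 6 of HMBA. The means of 0.26 ± 0.09, 0.38 ± 0.09 and 0.30 ± 0.09 were called (adjusted p = 0.04, 0.009 and 0.0238). These calls are near the threshold: leaving out any 1 of 9 arrays, all 6 RA arrays among them, ended the RA call, as did 1 of 2 DMSO arrays for DMSO and 1 of 4 HMBA arrays for HMBA (adjusted p 0.0507 to 0.13). Leaving out any day ended the RA call, day 4 the DMSO call and day 2 or 4 the HMBA call (adjusted p 0.0715 to 0.23), while the dye block gave 0.00459, 0.00032 and 0.00196.

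Ak4, which had risen after Pou5f1 RNAi, was below 0 on all DMSO arrays, at -0.86 and -0.04 on day 2, -1.77 and -0.86 on day 4 and -0.65 and -0.24 on day 6, and on all HMBA arrays, at -0.34 and -0.43 on day 2, -1.77 and -1.35 on day 4 and -0.23 and -0.33 on day 6. The means were -0.74 ± 0.19 and -0.74 ± 0.19 (adjusted p = 0.0179 and 0.0121), and without day 4 they were -0.45 and -0.33 and no longer called (adjusted p = 0.317 and 0.445). Single arrays also ended the calls: any 1 of 3 for DMSO (adjusted p 0.0747 to 0.0983) and 1 for HMBA (adjusted p = 0.0551). With RA the Ak4 mean was -0.50 ± 0.19 (adjusted p = 0.0738, and 0.00257 with the dye block). Bhlhe40 was below 0 on all DMSO arrays, at -0.53 and -0.79 on day 2, -0.57 and -0.49 on day 4 and -0.68 and -0.92 on day 6 (-0.66 ± 0.10, adjusted p = 0.000652). Its means with RA and HMBA were -0.52 ± 0.10 and -0.42 ± 0.10 (adjusted p = 0.00231 and 0.00921), and both calls were lost without day 4 (adjusted p = 0.385 and 0.224). The HMBA call was also lost without day 6 (adjusted p = 0.364) or without HMBA replicate 2 of any day (adjusted p 0.0543 to 0.0668).

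Of the remaining glycolytic enzymes Pgk1 and Eno2 were called. Pgk1 was lower with RA (-0.39 ± 0.09, adjusted p = 0.00756) and HMBA (-0.42 ± 0.09, adjusted p = 0.00533), both lost without day 4 (adjusted p = 0.247 and 0.195). Eno2 was below 0 on all 6 RA arrays, at -0.58 and -0.18 on day 2, -0.32 and -0.21 on day 4 and -0.39 and -0.26 on day 6 (-0.32 ± 0.09, adjusted p = 0.0182), and below DMSO (-0.57 ± 0.13, adjusted p = 0.016). The difference was lost without 1 of 3 arrays (RA day 6 replicate 1, DMSO day 2 replicate 2 and DMSO day 6 replicate 1, adjusted p 0.0517 to 0.054). The RA call was lost without 1 of 3 RA arrays, day 2 or day 6 (adjusted p 0.0657 to 0.0755). Ldha (means -0.20, 0.07 and -0.18), Pfkl (-0.18, 0.39 and -0.05) and Pfkm (-0.16, 0.22 and 0.02) were not called, and with the dye block Pfkl and Pfkm were called higher with DMSO (adjusted p = 0.00129 and 0.0116). Gapdh, by its representative probe, had means of -0.01, 0.35 and 0.15, with DMSO called higher only with the block (adjusted p = 0.0105). The DMSO mean of Eno2, 0.25 ± 0.09, was likewise called higher with the block (adjusted p = 0.0152, and 0.0775 without it).

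RA raised the collagen prolyl hydroxylases, in the treatment in which 3 of 6 fibroblast markers were also higher. The part of other cell types in these changes was not tested. P4ha2 read 0.95 and 1.89 on day 2, 1.83 and 1.44 on day 4 and 1.83 and 2.24 on day 6 of RA, all above every DMSO and HMBA array, which lay between -0.34 and 0.70. The RA mean was 1.70 ± 0.14, adjusted p = 3.31e-06, and RA exceeded DMSO by 1.57 ± 0.20 and HMBA by 1.43 ± 0.20 (adjusted p = 0.000457 and 0.0015). Vegfa was above 0 on all RA arrays, at 1.11 and 0.20 on day 2, 0.62 and 0.34 on day 4 and 1.85 and 1.06 on day 6 (0.86 ± 0.17, adjusted p = 0.00281), a call lost without day 6 (adjusted p = 0.104). Its DMSO and HMBA means were 0.16 ± 0.17 and -0.01 ± 0.17. Plod2 had an RA mean of 0.51 ± 0.18 (adjusted p = 0.0589, and 7.53e-05 with the dye block).

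Several genes changed with the length of treatment, and the following 3 are given by day although they fall outside the rule for printing arrays, having been chosen after their values were seen. P4ha1, the partner of P4ha2 in the collagen prolyl hydroxylase family, read 0.56 and -0.40 on day 2, 0.48 and 0.76 on day 4 and 2.55 and 2.44 on day 6 of RA, -0.86 and -0.55 on day 2, -0.15 and 0.23 on day 4 and 1.53 and 1.19 on day 6 of DMSO, and -0.09 and 0.08 on day 2, 0.58 and 0.45 on day 4 and 1.44 and 1.26 on day 6 of HMBA. The means over days were called higher with RA (1.07 ± 0.12, adjusted p = 3.19e-05) and HMBA (0.62 ± 0.12, adjusted p = 0.00198), both lost without day 6 (adjusted p = 0.142 and 0.307), and with DMSO the mean was 0.23 ± 0.12. Day 6 was above day 2 in each (2.41 ± 0.29, 2.06 ± 0.29 and 1.35 ± 0.29, adjusted p = 0.00143, 0.00563 and 0.0409). The HMBA call was lost without any of 14 of 18 arrays (adjusted p 0.0581 to 0.312) and the DMSO call without 1 of 3 (DMSO day 2 replicate 1 and both day 6 arrays, adjusted p 0.0569 to 0.082), while the dye block gave 3.5e-05 for DMSO and 0.00154 for HMBA.

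Ndrg1 read -0.42 and -0.76 on day 2, 0.83 and 0.28 on day 4 and 2.70 and 2.27 on day 6 of RA, and 0.38 and -0.21 on day 2, 0.86 and 0.21 on day 4 and 3.05 and 2.89 on day 6 of HMBA. The means over days were 0.82 ± 0.14, adjusted p = 0.000956 for RA and 1.20 ± 0.14, adjusted p = 5.73e-05 for HMBA, and without day 6 they were -0.02 and 0.31 (adjusted p = 0.982 and 0.276). Both day 6 pairs were above all other arrays, with day 6 minus day 2 differences of 3.07 ± 0.33 and 2.88 ± 0.33 (adjusted p = 0.00115 and 0.00109). With DMSO, where 1 of the 6 arrays has no value, it read -0.08 and -0.65 on day 2, -0.09 on day 4 and 0.31 and -0.04 on day 6, and the mean over days lay below HMBA (DMSO minus HMBA -1.30 ± 0.21, adjusted p = 0.0097) and below RA (RA minus DMSO 0.92 ± 0.21, adjusted p = 0.0213). The latter was lost without 1 of 5 arrays (adjusted p 0.0535 to 0.0721), with arrays scaled to one spread (adjusted p = 0.0673) and with the mean over all Ndrg1 probes (adjusted p = 0.108).

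Bnip3 was low first and returned. It read -1.37 and -2.59 on day 2, -1.36 and -2.06 on day 4 and 0.82 and 0.20 on day 6 of RA, -1.02 and -1.81 on day 2, -0.45 and -1.33 on day 4 and 0.57 and -0.16 on day 6 of DMSO, and -1.36 and -1.99 on day 2, -0.88 and -1.77 on day 4 and 0.62 and -0.10 on day 6 of HMBA. All arrays of days 2 and 4 were below 0, and those of day 6 lay between -0.16 and 0.82. Day 6 exceeded day 2 by 2.49 ± 0.52 with RA (adjusted p = 0.042), 1.62 ± 0.52 with DMSO and 1.93 ± 0.52 with HMBA (adjusted p = 0.258 and 0.114). The dye block gave 6.29e-08, 1.12e-05 and 8.81e-07, and without the block the RA call was lost without any of 15 of 18 arrays (adjusted p 0.0531 to 0.329). The mean over days was lower in all 3 treatments (-1.06 ± 0.21, -0.70 ± 0.21 and -0.91 ± 0.21, adjusted p = 0.00258, 0.0394 and 0.00667), and each of these calls was lost without day 2 or day 4 (adjusted p 0.0708 to 0.454). The DMSO call was also lost without 1 of 4 DMSO arrays (adjusted p 0.0503 to 0.181).

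Counted over the 31 genes, day 6 differed from day 2 for 3 genes with RA, each higher on day 6 (0.881% of all genes higher and 0.457% lower, 1.34% in all). With the dye block 13 were higher and 2 lower (7.39% and 4.77%, 12.2% in all). With DMSO 2 differed, both higher (0.582% and 0.548%, 1.13% in all), and with the block 9 were higher and 1 lower (6.0% and 4.84%, 10.8% in all). With HMBA 2 were higher and 2 lower (0.814% and 0.931%, 1.75% in all), and with the block 5 and 3 (5.14% and 6.16%, 11.3% in all). The median difference of the 31 genes was 0.43 with RA, 0.34 with DMSO and 0.13 with HMBA, against 0.004, 0.011 and -0.018 over all genes. The 2 HMBA falls were Ldhb (-1.76 ± 0.34, adjusted p = 0.0242) and Bhlhe40 (-1.20 ± 0.25, adjusted p = 0.0371). The HMBA count fell from 4 to 1 when any 1 of its 4 day 2 and day 6 arrays was left out, and the DMSO count from 2 to 1 without DMSO day 2 replicate 1 or either DMSO day 6 array.

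The day 6 minus day 2 differences called only with the dye block were, on the log2 scale, Plod2 1.85, Slc16a3 1.27, Ddit4 1.17, Pfkl 1.01, Ldha 0.99, Egln3 0.97, Bnip3l 0.95, Pfkm 0.83, Vegfa 0.80 and Pfkp 0.50 with RA for the genes that were higher on day 6, and Ldhb -1.18 and Hk2 -0.67 for those that were lower. With DMSO they were Vegfa 1.69, Bnip3 1.62, Ddit4 1.19, Plod2 1.0, Pfkl 0.90, Pgk1 0.79 and Pfkm 0.66 for higher genes and -0.78 for Ldhb. With HMBA they were Bnip3 1.93, Bnip3l 0.78 and Vegfa 0.72 for higher genes and -0.89 for Hk2.

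**Figure D4:**
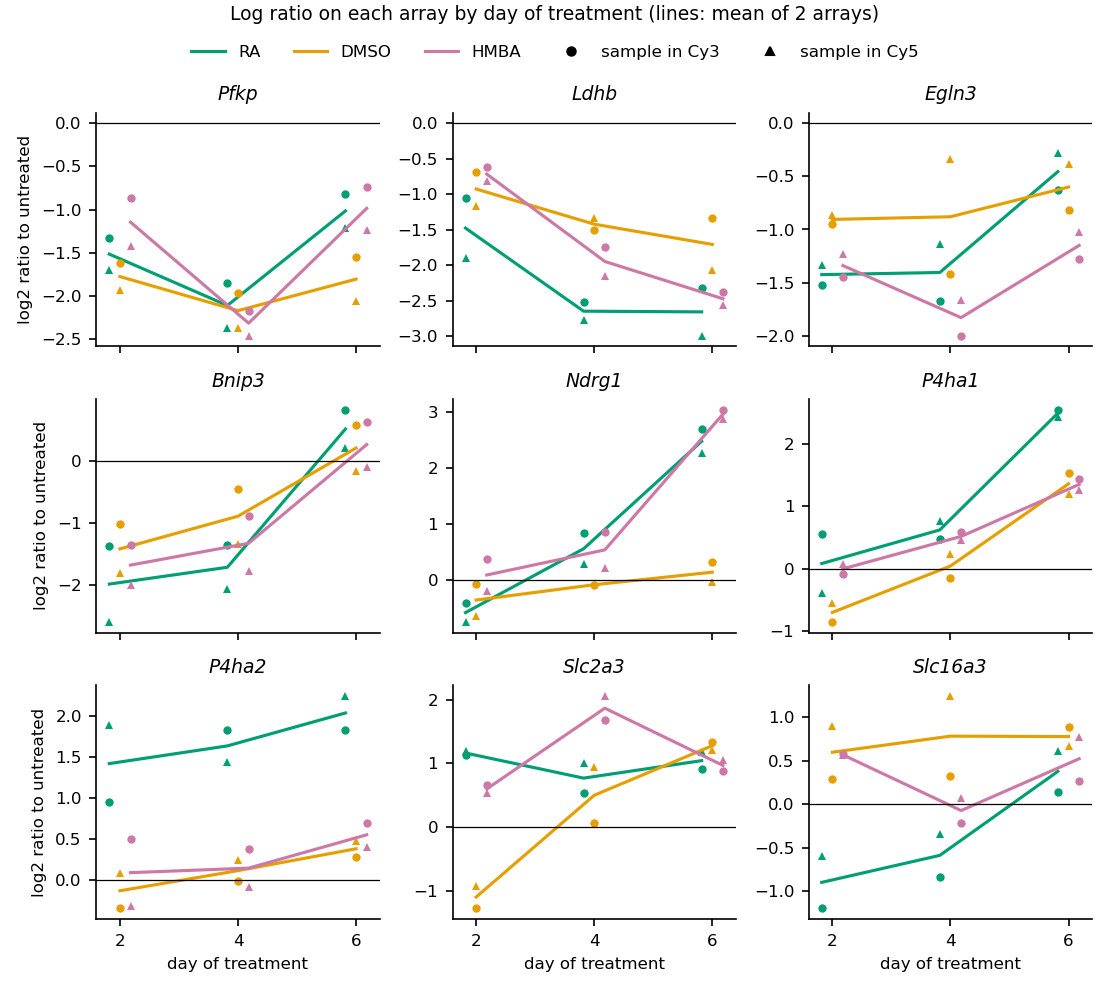
Log2 ratio of treated to untreated cells (y axis) on each array against the day of treatment (x axis) for 9 genes, with RA in green, DMSO in orange and HMBA in pink, circles for the sample in Cy3 and triangles for Cy5, and lines through the means of 2 arrays (1 for Ndrg1 with DMSO on day 4). Pfkp, Ldhb and Egln3 stay below 0, Bnip3 returns to the range of -0.16 to 0.82 by day 6, and Ndrg1 is high on day 6 of RA and HMBA but not of DMSO.

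Between treatments, RA and DMSO differed for 7 of the 31 genes, 4 higher with RA and 3 lower (4.29% and 2.19% of all genes, 6.48% in all), or 9 and 8 with the dye block (14.3% and 9.32%, 23.6% in all). RA and HMBA differed for 1, P4ha2, higher with RA (2.29% of all genes higher and 0.856% lower, 3.14% in all), or with the block for 5 higher and 4 lower (10.5% and 6.37%, 16.9% in all). DMSO and HMBA differed for 2, Slc2a3 and Ndrg1, both lower with DMSO (0.557% higher and 1.2% lower, 1.75% in all), or with the block for 4 higher and 3 lower (4.83% and 6.56%, 11.4% in all). The differences called only with the block were Vegfa 0.70, Egln1 0.60, Plod2 0.48, Pfkp 0.37, Hk2 0.35, Bnip3 -0.36, Pfkm -0.38, Pgk1 -0.44, Pfkl -0.57 and Ddit4 -0.64 for RA minus DMSO. For RA minus HMBA they were Vegfa 0.87, Plod2 0.53, Hk2 0.46, P4ha1 0.45, Ndrg1 -0.38, Eno2 -0.40, Ldhb -0.55 and Slc16a3 -0.71. For DMSO minus HMBA they were Ddit4 0.81, Egln3 0.64, Pgk1 0.46, Pfkl 0.44 and Pfkp -0.43. The RA and HMBA count was 3 without RA day 2 replicate 2. The DMSO and HMBA count was 1 without any of 5 arrays, those that ended the Slc2a3 call (DMSO day 2 replicate 1, DMSO day 6 replicate 2, HMBA day 2 replicate 1, HMBA day 4 replicate 2 and HMBA day 6 replicate 2).

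Without the dye block Ddit4 and Bnip3l were called in 1 treatment each. Ddit4 was higher with DMSO (0.46 ± 0.13, adjusted p = 0.0299), lost without day 4, day 6 or any of 5 of the 6 DMSO arrays (adjusted p 0.0594 to 0.548). With HMBA it lay on the other side, at -0.35 ± 0.13 (adjusted p = 0.0762), and was called lower with the dye block (adjusted p = 0.00253), without day 4 (adjusted p = 0.0387) or without any 1 of 4 arrays of RA and DMSO (adjusted p 0.0318 to 0.0499). Bnip3l, a mitophagy receptor related to Bnip3, was higher with HMBA (0.53 ± 0.16, adjusted p = 0.0302), lost without day 4, day 6 or 1 of 4 HMBA arrays (adjusted p 0.0505 to 0.329), and with the dye block it was also called with RA and DMSO (0.39 and 0.26, adjusted p = 0.000255 and 0.00888). Its sign changed with the dye in 5 of 9 pairs over the 3 treatments, with means of 0.68 in Cy3 and 0.11 in Cy5.

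The knockdown and treatment experiments share no arrays, so their calls can be set side by side for the 29 genes on both. After Nanog RNAi 18 of the 29 were lower. With RA 8 were lower, and 7 were lower in both (7 of 18 and 7 of 8): Hk2, Pfkp, Pgk1, Ldhb, Egln3, Bnip3 and Bhlhe40. The overlap was 6 of 18 and 6 of 7 with DMSO, and 7 of 18 and 7 of 8 with HMBA. Because most of the 29 were lower after Nanog RNAi, a large overlap is likely without any link between the experiments. Over all genes, where a smaller share was lower, it is less so. Over the 11037 genes on both platforms, 262 genes were lower both after Nanog RNAi and with RA, out of 1210 and 1154, 219 with DMSO, out of 1210 and 940, and 322 with HMBA, out of 1210 and 1389. Conversely, Slc2a3, Pdk3, P4ha1 and Vegfa were lower after Nanog RNAi and higher with RA (4 of 18 and 4 of 7), as were 155 of 1210 and 1960 over all genes. The RA calls of Hk2, Pgk1, Bnip3, Bhlhe40, Pdk3, P4ha1 and Vegfa were each lost in at least 1 fit that left out a day. The correlation of the changes over the 29 genes was 0.64 for Nanog RNAi and RA, 0.40 for DMSO and 0.50 for HMBA, against 0.26, 0.15 and 0.25 over the 11037 genes.

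For Pou5f1 RNAi, 17 of the 29 genes were lower and 7 higher. Of these, 6 were also lower with RA (6 of 17 and 6 of 8), 5 with DMSO (5 of 17 and 5 of 7) and 6 with HMBA (6 of 17 and 6 of 8). Over the 11037 genes the corresponding counts were 636 of 2561 and 1154 for RA, 524 of 2561 and 940 for DMSO, and 835 of 2561 and 1389 for HMBA. Both higher were 4 genes with RA (4 of 7 and 4 of 7), namely Slc2a3, Egln1, P4ha2 and Ndrg1, and 2 with HMBA (2 of 7 and 2 of 4), Slc2a3 and Ndrg1. The RA call of Egln1 and both treatment calls of Ndrg1 were lost in at least 1 fit that left out a day. No gene of the 29 was higher both after Pou5f1 RNAi and with DMSO. Over the 11037 genes, 1125 of 2744 and 1960 were higher in both with RA, 642 of 2744 and 1244 with DMSO, and 1127 of 2744 and 1803 with HMBA. The correlations were 0.41, 0.12 and 0.50 over the 29 genes, and 0.50, 0.36 and 0.56 over all 11037. The genes of one comparison share its arrays, and these values are descriptions.

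Other genes of the pathway, from lists of 94 genes of which 86 were on the RNAi arrays, were called in both directions. After Nanog RNAi 21 were lower and 11 higher (8.77% and 12.1% of all genes), with a median of -0.06 against -0.015. After Pou5f1 RNAi 30 were lower and 24 higher (19.5% and 20.6% of all genes), with a median of -0.10 against -0.037. The 86 included 15 further glycolysis genes. Of these, 13.3% were called after Nanog RNAi and 46.7% after Pou5f1 RNAi, against 20.8% and 40.1% of all genes. The transcripts of the HIF proteins, named for their role and not for their size of change, are given next. Hif1a, the main inducible subunit, was at 0.02 ± 0.08 after Nanog RNAi (adjusted p = 0.9) and slightly higher after Pou5f1 RNAi (0.30 ± 0.08, adjusted p = 0.00752). Epas1, which encodes HIF-2α, was higher after Nanog RNAi (0.52 ± 0.09, adjusted p = 0.000493) and lower after Pou5f1 RNAi (-0.90 ± 0.10, adjusted p = 2.76e-07), and Arnt, their shared partner, was lower after Pou5f1 RNAi (-0.37 ± 0.08, adjusted p = 0.000725). HIF protein was not measured.

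The largest changes among the further hypoxia targets differed from gene to gene. Kdm3a, a histone demethylase, and Angptl4, an inhibitor of lipoprotein lipase, were lower after Pou5f1 RNAi (-1.27 ± 0.08 and -1.26 ± 0.09, adjusted p = 4.4e-11 and 1.85e-10). Hmox1, heme oxygenase, was higher after Pou5f1 RNAi and Nanog RNAi (1.47 ± 0.09 and 1.23 ± 0.08, adjusted p = 1.58e-11 and 7.31e-10), as was the growth factor binding protein Igfbp3 after Nanog RNAi (1.42 ± 0.09, adjusted p = 5.93e-10). Pdp1, the phosphatase that reactivates pyruvate dehydrogenase, fell after Nanog RNAi (-0.82 ± 0.12, adjusted p = 2.78e-05), as its opposing kinase Pdk1 did. On the 2-colour arrays 66 of the list were measured, with 9 higher and 8 lower for RA, 9 and 7 for DMSO and 9 and 9 for HMBA. These are 25.8%, 24.2% and 27.3% of the 66, against 27.5%, 19.3% and 28.2% of all genes. With the dye block the counts were 21 and 14, 20 and 15, and 19 and 20, against 52.6%, 45.1% and 52.9% of all genes in either direction. Kdm3a was lower in all 3 treatments (-1.07 ± 0.31, -1.23 ± 0.31 and -1.49 ± 0.31, adjusted p = 0.0248, 0.0164 and 0.00357). Loxl2, a collagen crosslinking enzyme, rose with RA and HMBA (2.21 ± 0.08 and 0.99 ± 0.08, adjusted p = 3.9e-09 and 3.19e-06). Mpc1, a subunit of the mitochondrial pyruvate carrier, fell with DMSO and HMBA (-1.22 ± 0.24 and -0.97 ± 0.24, adjusted p = 0.00317 and 0.0089).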

How the data were processed

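Expression was analysed in 14 RNAi arrays (Affymetrix) and 18 two-colour arrays of E14TG2a cells. Per the submitters' processing notes, the authors made the RNAi values with RMA, and they were used as deposited log2 levels; software version and annotation are not given in the sources used here. The authors deposited 2-colour values as log ratios, turned to sample over reference per the labels; base, background correction and normalization are not given in the sources used here, base 2 was assumed, and each array has a median of 0. Values per 2-colour array ranged from 11257 to 20019. Of 45101 RNAi probe sets 64 controls were set aside, and of 21106 two-colour probes 16657 with a value in every group were tested. Array number limits the precision.

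Groups came from the labels. Comparisons were fitted with limma 3.58.1 (lmFit, eBayes) in R 4.3.3, each platform as a single model of its 14 or 18 arrays without a block; p-values were adjusted over all probes by Benjamini-Hochberg, and calls have adjusted p under 0.05. The script was tested on simulated data. Figures used matplotlib 3.10.9 in Python 3.11.15. Each gene is measured by 1 probe with 1 symbol, the brightest on average (RNAi) or the one with values on most arrays (2-colour). Every gene of the list is accounted for. Values per array are printed for at most 8 genes per comparison and direction, largest change first, among called genes whose groups do not overlap (RNAi) or whose 6 arrays share a sign (treatments), and at most 3 other pathway genes per comparison and direction are named. The genes and lists were chosen with earlier results of these data known. Probe sets of Slc2a3, Aldoa, Ldhb, Ak4 and Ndrg1 end in _s_at or _x_at and can bind related transcripts, and Gapdh has 232 two-colour probes.

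Whether replicate numbers pair arrays was examined next. On the 2-colour arrays the number is the dye orientation: deviations of same-numbered arrays correlated at 0.505 to 0.92 in all 36 pairs of groups, so calls that change with the block are given with it. On the RNAi arrays 5 of 13 pairs exceeded 0.1. Alternatives were the block, an intensity trend or robust eBayes, a filter at a log2 level of 6, centring or scaling of arrays, all probes of a gene, probes with values on all 18 arrays, and leaving out each array and each day. Promoters are RefSeq windows on GRCm38.p6.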

Additional observations from a re-analysis of the deposited data

Results flagged for a closer look

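In 5 of 102 groups of 4 or 5 arrays, 1 array lay apart from the others by Dixon's criterion, which chance alone meets in about 1 in 20 groups. Aldoa read 12.12 on Pou5f1 RNAi replicate 2, below the other 3 at 12.24. Eno2 read 3.42 on Nanog RNAi replicate 2, below the others at 3.79 to 3.93. Pgk1 read 11.87 on Nanog RNAi replicate 4, above the others at 11.60 to 11.67. Plod2 read 8.16 on Pou5f1 RNAi replicate 3, below the others at 8.38 to 8.42. Tpi1 read 11.47 on Pou5f1 RNAi replicate 3, above the others at 11.32 to 11.34.

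The mean response over days differed between treatments in 10 tests of the difference. Between RA and DMSO these were Slc2a3 (0.77), Slc16a3 (-1.09), Eno2 (-0.57), Ldhb (-0.91), P4ha1 (0.83, adjusted p = 0.00994), P4ha2 (1.57) and Ndrg1 (0.92), as RA minus DMSO on the log2 scale. RA minus HMBA was 1.43 for P4ha2. DMSO minus HMBA was -0.92 for Slc2a3 and -1.30 for Ndrg1.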

How the results depend on the processing

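Of 99 counts of called genes under another setting 86 stayed within 1.5 times the reported count, as did 125 of 140 with 1 array left out. No gene of the list was called in opposite directions by the reported fit and another setting. Some changes took the other sign without being called in both. Whether RNAi replicate numbers pair the arrays was not settled. Correlations of same-numbered arrays ran from -0.246 to 0.437, and 9 of 14 arrays were closest to an array of their own number. With the number as a block 28 (Pou5f1), 24 (Nanog) and 23 (between knockdowns) of the listed genes were called, in place of 28, 24 and 22. With dye orientation as the replicate block the counts were 17 for DMSO, 17 for RA minus DMSO, 9 for RA minus HMBA, 7 for DMSO minus HMBA, and 15, 10 and 8 for day 6 minus day 2 of RA, DMSO and HMBA. Other pathway genes then gave 35, 35 and 39 calls for RA, DMSO and HMBA in place of 17, 16 and 18. Without day 4 the counts were 6 for DMSO and 8 for HMBA. With probes measured on all 18 arrays, DMSO minus HMBA gave 1 call, because Ndrg1 has no complete probe.

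With 1 array left out, counts of the listed genes ranged from 25 to 28 for Pou5f1 RNAi, 22 to 24 for Nanog RNAi, 20 to 23 between knockdowns, 11 to 14 for RA, 6 to 11 for DMSO, 10 to 12 for HMBA, 5 to 8 for RA minus DMSO, 1 to 3 for RA minus HMBA and 1 to 3 for DMSO minus HMBA. For day 6 minus day 2 they ranged from 2 to 3 for RA, 1 to 2 for DMSO and were 1 for HMBA. Other pathway genes ranged from 47 to 54, 28 to 35 and 39 to 44 in the RNAi comparisons and from 12 to 16, 13 to 15 and 11 to 15 for RA, DMSO and HMBA. The cause of these shifts was not tested. Genes near background (Eno2, Car9) and the 2 arrays per treatment and day limit what can be called.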

Other observations

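Genes of glycogen handling and gluconeogenesis store or rebuild the glucose that glycolysis uses. After Pou5f1 RNAi 6 of 10 were called higher and 2 lower (20.6% and 19.5% of all genes), with a median change of 0.70 against -0.037 over all genes. Pygl, the liver glycogen phosphorylase that releases glucose from glycogen, rose from a mean log2 level of 4.37 to 7.67 (3.30 ± 0.08, adjusted p = 2.37e-17). Ugp2, which makes UDP-glucose, rose by 1.25 ± 0.08 (adjusted p = 1.35e-10), and Pck2, mitochondrial PEP carboxykinase, was lower (-1.06 ± 0.09, adjusted p = 1.31e-08). After Nanog RNAi 3 of the 10 were higher and 4 lower (12.1% and 8.77% of all genes), with a median of -0.03. There Pgm1, phosphoglucomutase, fell (-0.89 ± 0.08, adjusted p = 8.58e-08), Fbp1, a gluconeogenic phosphatase, rose (1.05 ± 0.13, adjusted p = 6.12e-06), Pck2 fell (-0.70 ± 0.09, adjusted p = 9.17e-06), and Pygl was at -0.17 ± 0.07 (adjusted p = 0.147). With RA, Pygl was also called higher (1.09 ± 0.27, adjusted p = 0.0105).

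The 2-colour arrays carried 232 probes for Gapdh, the enzyme often used as a reference transcript. Their median changes were -0.06 with RA, 0.26 with DMSO and 0.17 with HMBA, with 5th to 95th percentiles of -0.14 to 0.00, 0.19 to 0.34 and 0.11 to 0.23. Without the dye block 0 of the 232 were called by limma in the 3 treatments, and 0 had an unadjusted p under 0.05. These probes read the same transcript on the same arrays and are not independent. The representative Gapdh probe changed sign with the dye in 8 of 9 pairs, and with the block it was called higher with DMSO. The 1 other probe of Hk1 was called with HMBA in the direction opposite to its representative probe, whose value was 0.14 ± 0.20 (adjusted p = 0.705).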
